A study of Homo sapiens with 6 samples.

Results

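Oxidative phosphorylation genes of the nuclear genome were read on 6 arrays of 3 Burkitt lymphoma cell lines, with and without an induced microRNA, miR26a. Members were chosen by symbol: genes of the NDUFA, NDUFB, NDUFC, NDUFS, NDUFV, UQCR, COX4I, COX5, COX6, COX7, COX8 and ATP5 series, together with the SDH subunits and CYC1, leaving out NDUFAF assembly factors and ATP5 pseudogenes. The rule used no measured value except to represent each gene by its brightest probe set. It gave 82 of the 19775 genes with a symbol of their own, read by 157 probe sets. Of these, 76 encode subunits: 33 of complex I, 3 of complex II, 7 of complex III, 16 of complex IV and 17 of complex V. The remaining 6 were caught by the first letters of their symbols: the ATP synthase inhibitor ATP5IF1, the supercomplex factor COX7A2L, the pseudogene COX6A1P1 and the noncoding RNAs NDUFB2-AS1, NDUFV1-DT and NDUFV2-AS1. A mean level of at least 4.42, which is the median over the array without its control probe sets, was reached by 74 members, 70 of them subunits, and these were tested. The members below it were COX6A2, COX6B2, COX7A1, COX7B2, COX8C, ATP5MF, COX6A1P1 and NDUFV2-AS1. NDUFA4, NDUFA4L2, NDUFS5, NDUFS8, NDUFC2, SDHB, UQCRFS1, UQCRH and the 13 subunits encoded by mitochondrial DNA were not analysed here.

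In oxidative phosphorylation, complex I takes electrons from NADH and complex II takes them from succinate, and both pass them to ubiquinone. Complex III hands them to cytochrome c and complex IV to oxygen, while complexes I, III and IV move protons across the inner mitochondrial membrane. Complex V, the ATP synthase, lets the protons flow back and makes ATP. Except for complex II, each complex also holds subunits encoded by mitochondrial DNA. The transcription factors MYC, NRF1, YY1 and the ETS factor GABPA with its partner are known to act on many of these genes.

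Namalwa, Raji and Ramos are established B-cell lines grown from Burkitt lymphoma, a tumour driven by MYC. Each line gave 1 array of cells transfected to express miR26a (the miR26a group) and 1 array of cells labelled empty (the empty group), so each group held 3 arrays and each line 2. Doxycycline, the inducer of the construct, is listed for all 6 samples at 0.5 µg/ml for 72 h, so both groups received it. The series asks about MYC, the Polycomb gene EZH2 and this microRNA as a regulator of it. The labels do not say whether the transfected cells were clones or pools, or whether cultures were repeated, so p-values measure the spread between these arrays only. The mature miR26a was not read by these arrays. Its sequence in RefSeq (GRCh38.p14), identical for its genes MIR26A1 on chromosome 3 and MIR26A2 on chromosome 12, is shown here because it is the agent that separates the groups, with the seed, bases 2 to 8, in capitals.
hsa-miR-26a-5p: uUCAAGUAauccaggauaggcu

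Values are levels on the authors' log2 scale, where a difference of 1 is a 2-fold difference. Array medians lay between 4.36 and 4.44. The number of arrays limits the precision. The ACTB probe set of the 3′ end of the transcript exceeded that of the 5′ end by 3.58 on the Namalwa empty array and by 1.80 to 1.98 elsewhere, and for GAPDH the gap was 0.31 there and 0.10 to 0.16 elsewhere. B-cell markers fitted the labels: 7 of 7 with a probe set exceeded the minimum level on every array, as did 4 of 4 germinal centre markers. Of markers of other cells, 1 of 7 for T and NK cells, 0 of 6 for monocytes, 1 of 2 for red cells and 1 of 5 for fibroblasts did so. In such bulk samples, fewer cells of a type and less RNA per cell cannot be told apart.

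Many subunit genes of complexes I, III, IV and V were higher in Raji cells than in either of the other lines, while some of complex I and 1 of complex II were lower. Compared with Namalwa, 44 of the 74 tested members were higher in Raji (59.5%), where 22.8% of all 12012 genes tested were, and 4 were lower (5.41%, against 23.4% of all genes). Compared with Ramos, 36 members were higher in Raji (48.6%, against 26.1% of all genes) and 4 were lower (5.41%, against 24.4%). These calls are from limma with the group as a term and an adjusted p under 0.05 over all genes tested. The 2 comparisons share the Raji arrays, so they are not independent of each other.

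The median member differed by 0.46 from Namalwa and by 0.35 from Ramos, where the median over all genes tested was 0.05 and 0.06. Most members are bright on these arrays, so they were also set beside the 1560 tested genes with a mean level of at least 9, whose median difference was -0.05 from Namalwa and -0.11 from Ramos. Of the 64 members among those bright genes, 38 were higher in Raji than in Namalwa (59.4%, against 24.9% of the bright genes) and 31 higher than in Ramos (48.4%, against 21.7%). Both Raji arrays stood above all 4 arrays of the other lines for 50 of the 74 members (67.6%), and for 30.9% of all genes. Both stood below them for 5 members (6.76%, against 26.1% of all genes), which were NDUFS4, NDUFA5, NDUFB5, NDUFB8 and SDHC. Counts depended on single arrays: without the Namalwa empty array, whose 3′ to 5′ gap stood apart, 28 members passed against Namalwa, 24 higher and 4 lower, and without the Ramos miR26a array 25 passed against Ramos, 23 higher and 2 lower. Of the 6 markers of other cells that were tested, at levels of 4.21 to 7.15, 4 were called higher in Raji in each comparison and none lower: CSF1R by 0.66 and 0.62, HBB by 0.61 and 0.97, DCN by 0.65 and 0.99 and COL1A1 by 0.36 and 0.54. CD3E (0.09 and 0.22) and COL1A2 (0.31 and -0.22) passed in neither, and the part of these markers in the result was not tested.

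**Figure D1:**
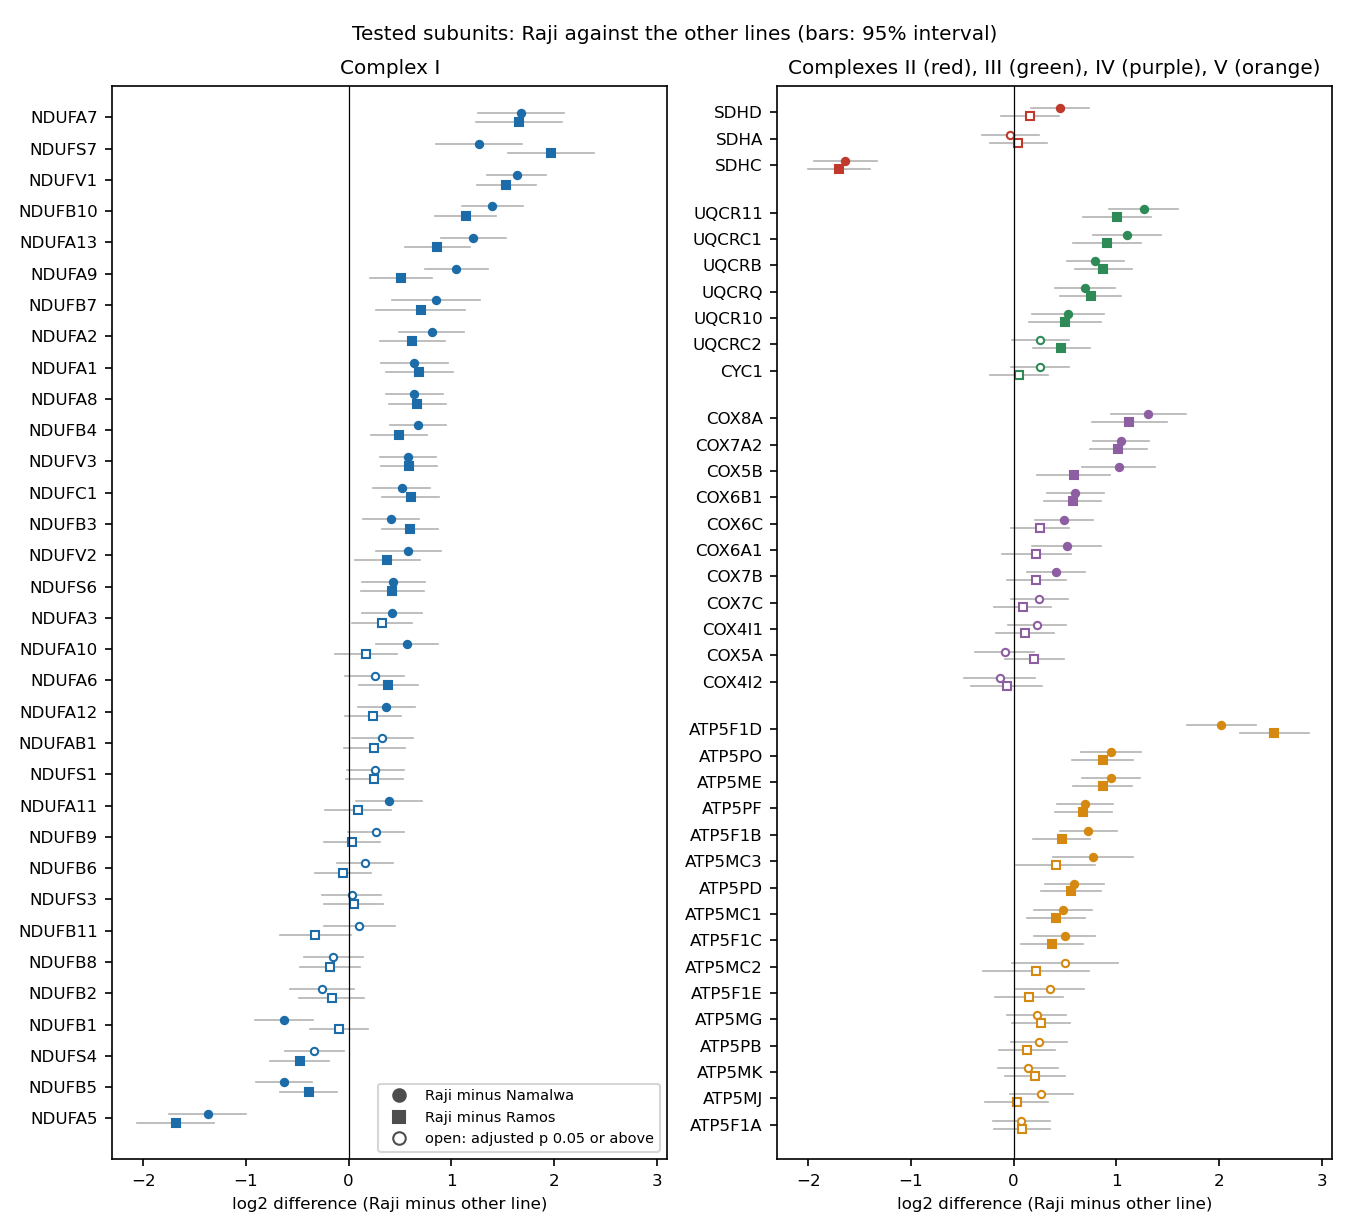
Log2 difference of each tested subunit, Raji minus Namalwa (circles) and Raji minus Ramos (squares), with 95% intervals from limma; filled symbols passed an adjusted p of 0.05. Most subunits of complexes I, III, IV and V lie to the right of 0, up to 2.54 for ATP5F1D, while SDHC and NDUFA5 lie below -1.3 in both comparisons.

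Of the 76 subunits, 64 had a promoter sequence in RefSeq (GRCh38.p14), covering 250 bases before the start and 50 after it; ATP5F1D and SDHC had none in that table. Known motifs of factors that act on mitochondrial genes were searched on both strands. The NRF1 motif (GCGC, any base, then TGCGC) was present in 25% of the 64 windows, in 6.28% of all 27305 promoters and in 11.9% of the 9696 promoters of tested genes. For the ETS motif CCGGAAG the shares were 28.1%, 10.7% and 19.4%, and for the YY1 motif AAGATGGC 15.6%, 3.03% and 5.56%. The SP1 motif GGGGCGGGG went the other way, with 14.1% of subunit windows against 16% of all promoters and 27.2% of those of tested genes. Shares for the MYC-type E-box CACGTG were 10.9%, 7.43% and 10.2%, and for the NF-Y motif CCAAT 32.8%, 35.7% and 36.9%. The 64 windows include those of COX6A2, COX6B2, COX7B2 and COX8C, which were not tested, unlike the promoters of tested genes. Of these, COX8C held the NRF1 motif and the others the NF-Y motif. The median Raji difference from the mean of the other lines was 0.51 over the 15 tested subunits with an NRF1 motif and 0.37 over the 45 without, and 0.62 over the 18 with an ETS motif and 0.36 over the 42 without. For YY1 it was 0.73 over the 10 with and 0.37 over the 50 without, and for the E-box 0.91 over 7 and 0.37 over 53. For SP1 and NF-Y it ran the other way, at 0.37 over the 9 with and 0.43 over the 51 without an SP1 motif, and at 0.37 over the 18 with and 0.43 over the 42 without an NF-Y motif. Of the 7 subunits with an E-box, NDUFA7, NDUFS7, NDUFA11 and UQCR11 are on chromosome 19, whose tested members had a median of 1.04. The remaining ones are ATP5ME, ATP5MC1 and ATP5PB. The motif shares and medians describe letters in a window, with no test of binding. The last 150 bases before the start follow for UQCR11, UQCRC1, ATP5PO and COX8A, which were higher in Raji, and for NDUFA5, which was lower. The shown genes were picked by hand, not by a rule, and do not represent all subunits. NDUFV1, NDUFB10 and COX7A2, also higher in Raji, held none of the searched motifs. NDUFS4, lower in Raji than in Ramos, held the YY1 motif. Capitals mark matches to the searched motifs: NRF1 in the first 3 genes, ETS also in UQCR11 and in COX8A, and NF-Y in COX8A and NDUFA5. The searched window is longer, and matches outside the bases shown are not marked. These were an E-box in UQCR11 and the YY1 motif in UQCRC1 and ATP5PO.
UQCR11, chr19:1605463-1605612, minus strand: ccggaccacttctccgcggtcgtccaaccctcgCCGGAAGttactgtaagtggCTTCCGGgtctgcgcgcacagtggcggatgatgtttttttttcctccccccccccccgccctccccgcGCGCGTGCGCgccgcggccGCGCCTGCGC
UQCRC1, chr3:48609647-48609796, minus strand: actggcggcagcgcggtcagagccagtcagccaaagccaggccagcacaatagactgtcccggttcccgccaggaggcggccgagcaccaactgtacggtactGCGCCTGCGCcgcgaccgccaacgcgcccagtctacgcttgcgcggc
ATP5PO, chr21:33915805-33915954, minus strand: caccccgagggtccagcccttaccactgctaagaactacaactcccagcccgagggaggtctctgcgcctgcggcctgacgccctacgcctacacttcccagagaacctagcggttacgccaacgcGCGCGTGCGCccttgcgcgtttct
COX8A, chr11:63974470-63974619, plus strand: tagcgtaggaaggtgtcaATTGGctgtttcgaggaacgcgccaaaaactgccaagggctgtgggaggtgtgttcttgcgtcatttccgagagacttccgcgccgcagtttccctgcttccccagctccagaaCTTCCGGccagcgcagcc
NDUFA5, chr7:123601652-123601801, minus strand: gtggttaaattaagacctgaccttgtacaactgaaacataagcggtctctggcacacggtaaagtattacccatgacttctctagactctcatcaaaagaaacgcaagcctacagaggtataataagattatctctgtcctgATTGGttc

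In complex I, 20 of 33 tested subunits were higher (60.6%) and 3 lower (9.09%) in Raji than in Namalwa, and 17 were higher (51.5%) and 3 lower than in Ramos. Counts of calls by complex, arm and list are to be read against the shares of all genes, 22.8% higher and 23.4% lower than in Namalwa and 26.1% higher and 24.4% lower than in Ramos. The arm that takes electrons from NADH held 10 of them, of which 7 were higher in each comparison. NDUFV1, the core subunit that binds NADH and its flavin, had levels of 11.09 (miR26a) and 10.86 (empty) in Raji, against 9.51 and 9.17 in Namalwa and 9.49 and 9.40 in Ramos. Both Raji arrays stood more than 1 unit above the other 4, with no overlap. The difference was 1.64 ± 0.13 from Namalwa (SE, limma, adjusted p = 6.07e-06) and 1.53 ± 0.13 from Ramos (adjusted p = 8.50e-06), a 3.11-fold and a 2.90-fold higher level. NDUFA7, an accessory subunit of the same arm, read 10.13 and 10.21 in Raji, against 8.87 and 8.12 in Namalwa and 8.55 and 8.47 in Ramos. It was 3.20-fold higher than in Namalwa and 3.15-fold higher than in Ramos (differences 1.68 ± 0.19 and 1.66 ± 0.19, SE), and the Namalwa empty array was its lowest. The iron-sulphur subunit NDUFV2 was higher by 0.58 and 0.38, and NDUFS1, which carries more of the clusters, differed by 0.26 and 0.25 without passing in either comparison. NDUFS4, an accessory subunit of this arm that is often mutated in inherited complex I deficiency, was lower in Raji than in Ramos (-0.48, adjusted p = 0.0118), while its difference from Namalwa of -0.33 did not pass (adjusted p = 0.059).

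The 4 subunits of the quinone-reducing arm of complex I went in both directions. NDUFS7, the core subunit with the last iron-sulphur cluster before ubiquinone, had levels of 8.72 and 8.92 in Raji, against 7.88 and 7.23 in Namalwa and 6.88 and 6.83 in Ramos. The lines did not overlap and ran in the order Raji, Namalwa, Ramos, with differences of 1.27 ± 0.19 from Namalwa and 1.97 ± 0.19 from Ramos (SE, limma, adjusted p = 0.000404 and 2.05e-05). NDUFA5, an accessory subunit of the same arm, went the other way, with 9.23 and 8.81 in Raji, against 10.39 and 10.39 in Namalwa and 10.56 and 10.85 in Ramos. Its levels in Raji were 2.59-fold lower than in Namalwa and 3.21-fold lower than in Ramos (differences -1.37 ± 0.17 and -1.68 ± 0.17, SE, adjusted p = 0.000122 and 2.7e-05). A second, dimmer probe set of NDUFA5 also read lower in Raji, by 1.56 relative to the mean of the other lines. The accessory subunit NDUFA9 was higher in Raji by 1.05 than in Namalwa and by 0.51 than in Ramos, and NDUFS3, a core subunit of this arm, lay within 0.05 of both lines.

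In the membrane arm of complex I, all 7 tested accessory subunits of the part next to the quinone site (NDUFA1, NDUFA3, NDUFA8, NDUFA10, NDUFA11, NDUFA13 and NDUFC1) were higher in Raji than in Namalwa, by 0.39 to 1.21, and 4 were higher than in Ramos. NDUFA13 led with 10.95 and 10.94 in Raji, against 9.92 and 9.55 in Namalwa and 10.06 and 10.11 in Ramos. In the far part, which holds the NDUFB subunits, 4 of 11 were higher and 2 lower than in Namalwa, and 4 were higher and 1 lower than in Ramos. These shares (36.4% and 18.2%, and 36.4% and 9.09%) lie near those of all genes for the higher calls, and the median difference was 0.16 from Namalwa and -0.05 from Ramos. NDUFB10 was 2.64-fold and 2.20-fold higher in Raji (1.40 ± 0.13 and 1.14 ± 0.13, SE, limma, adjusted p = 2.24e-05 and 7.88e-05). NDUFB5 was lower in Raji than in both lines (-0.63 and -0.39). NDUFB1 read 11.53 and 11.28 in Raji, against 12.14 and 11.93 in Namalwa and 11.70 and 11.29 in Ramos, so it was lower than in Namalwa (-0.63, adjusted p = 0.00253) and overlapped with Ramos. NDUFAB1, the mitochondrial acyl carrier protein that is also a subunit, differed by 0.33 and 0.25 and passed in neither comparison.

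In complex II, which is also an enzyme of the TCA cycle, 1 subunit was lower in Raji in both comparisons, 1 was higher than in Namalwa and 1 passed in neither. SDHC, 1 of its 2 membrane anchors, read 7.42 and 7.05 in Raji, against 8.88 and 8.86 in Namalwa and 8.96 and 8.90 in Ramos. Both Raji arrays lay more than 1 unit below the other 4, and the difference was -1.64 ± 0.14 from Namalwa and -1.70 ± 0.14 from Ramos (SE, limma, adjusted p = 9.21e-06 and 6.44e-06), a 3.11-fold and a 3.25-fold lower level. All 5 SDHC probe sets above the minimum level read lower in Raji, by 0.83 to 1.67 relative to the mean of the other lines. SDHD, the other anchor, read 10.89 and 10.68 in Raji, against 10.36 and 10.30 in Namalwa and 10.62 and 10.63 in Ramos. It was higher than in Namalwa (0.45, adjusted p = 0.0149), a call that was lost when either Namalwa array or the Raji miR26a array was left out (adjusted p = 0.0598, 0.0744 and 0.101). SDHA, the subunit that oxidises succinate, read 9.36 and 9.37 in Raji, against 9.36 and 9.44 in Namalwa and 9.37 and 9.27 in Ramos, and the 95% interval of its difference from Namalwa ran between -0.31 and 0.25.

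**Figure D2:**
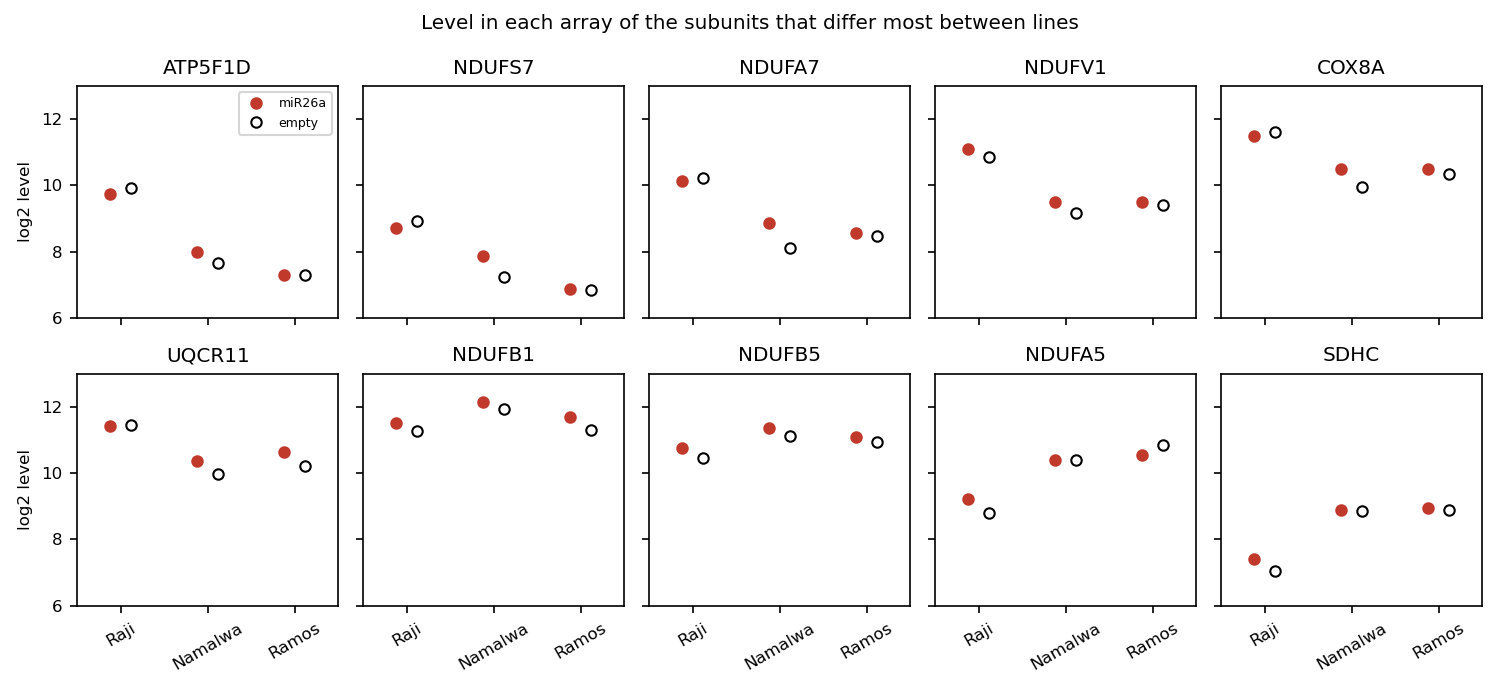
Log2 level on each array of 10 subunits that differed between the lines, with miR26a arrays as filled and empty arrays as open circles. Raji stands above the other lines for ATP5F1D, NDUFS7, NDUFA7, NDUFV1, COX8A and UQCR11 and below both for NDUFB5, NDUFA5 and SDHC.

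In complex III, Raji exceeded Namalwa for 5 of 7 subunits and Ramos for 6, with none lower, and the medians were 0.69 and 0.75. UQCRC1, a core protein of the matrix side, read 9.47 and 9.44 in Raji, against 8.44 and 8.26 in Namalwa and 8.38 and 8.71 in Ramos. It was 2.15-fold and 1.88-fold higher (1.10 ± 0.15 and 0.91 ± 0.15, SE, limma, adjusted p = 0.000236 and 0.000694), with no overlap between Raji and the other lines. UQCRC2, its partner core protein, differed by 0.26 from Namalwa (adjusted p = 0.115) and by 0.46 from Ramos (adjusted p = 0.011). The small subunits UQCRB, UQCRQ, UQCR10 and UQCR11 were all higher in Raji in both comparisons. UQCRB, which lies by the ubiquinone site, read 12.46 and 12.56 in Raji, against 11.71 and 11.71 in Namalwa and 11.58 and 11.69 in Ramos. UQCR11 read 11.41 and 11.46 in Raji, against 10.37 and 9.98 in Namalwa and 10.64 and 10.22 in Ramos. Its differences were 1.26 and 1.01, but a dimmer probe set of its own gave 0.17 (adjusted p = 0.316) and -0.35 (adjusted p = 0.0456), so the direction depends on the probe set. CYC1, the cytochrome c1 that passes electrons to cytochrome c, passed in neither comparison (0.26 and 0.05, adjusted p = 0.122 and 0.741).

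In complex IV, cytochrome c oxidase, Raji exceeded Namalwa for 7 of 11 tested subunits and Ramos for 4, with none lower. The share was 63.6% against Namalwa, but at 36.4% against Ramos it lies near the 26.1% of all genes, and the median differences were 0.49 and 0.22. COX8A, a small membrane subunit, read 11.48 and 11.60 in Raji, against 10.51 and 9.95 in Namalwa and 10.49 and 10.34 in Ramos. All 4 other arrays lay below both Raji arrays, and it was 2.48-fold and 2.18-fold higher (1.31 ± 0.16 and 1.13 ± 0.16, SE, limma, adjusted p = 0.000145 and 0.00033). COX7A2, the common form of its membrane subunit, read 12.95 and 12.81 in Raji, against 11.89 and 11.78 in Namalwa and 11.87 and 11.84 in Ramos, 2.06-fold and 2.03-fold higher. COX5B, the zinc-binding subunit, read 11.33 and 11.20 in Raji, against 10.59 and 9.90 in Namalwa and 10.77 and 10.59 in Ramos. It was higher than in Namalwa (1.02, adjusted p = 0.000544) and than in Ramos (0.58, adjusted p = 0.0118). The second call was lost without the Raji empty array (0.43, adjusted p = 0.084) or the Ramos miR26a array (0.47, adjusted p = 0.104), and the dimmest of its 4 probe sets passed in neither comparison (0.16 and 0.17, adjusted p = 0.42 and 0.362). Relative to the mean of the other lines, the 2 remaining COX5B probe sets were higher in Raji by 0.87 and 0.93, beside 0.80 for the one used. COX6B1 was higher in both comparisons (0.60 and 0.57), and COX6C, COX6A1 and COX7B were higher than in Namalwa by 0.41 to 0.52 but not called against Ramos. COX4I1, COX5A and COX7C passed in neither comparison.

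Several complex IV subunits have a second form restricted to certain tissues, and those forms stayed near or below the median of all probe sets. COX4I2, of lung and hypoxic cells, ranged between 4.46 and 4.88 over the 6 arrays and was tested without a call. The heart and muscle forms COX6A2 and COX7A1 ranged between 3.89 and 4.42 and between 2.99 and 3.75, and the testis forms COX6B2, COX7B2 and COX8C between 3.93 and 4.65, 3.30 and 3.70, and 2.13 and 2.53. The common forms COX4I1, COX6A1, COX6B1, COX7A2, COX7B and COX8A were each above 9.9 on every array. Levels of different probe sets are not on a common scale, so only the position of each relative to the minimum level is given.

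In complex V all 16 tested subunits had a positive difference from both lines, and 9 were called higher than in Namalwa and 8 than in Ramos. ATP5F1D, the delta subunit at the foot of the rotor, read 9.75 and 9.93 in Raji, against 8.0 and 7.64 in Namalwa and 7.31 and 7.30 in Ramos. The lines did not overlap, and its differences of 2.02 ± 0.15 and 2.54 ± 0.15 (SE, limma, adjusted p = 4.16e-06 and 7.31e-07) were the furthest from 0 among the members, a 4.06-fold and a 5.80-fold higher level. Its other probe set above the minimum also read higher in Raji, by 1.49 relative to the mean of the other lines. In the catalytic head, ATP5F1B was higher by 0.72 and 0.47, the shaft subunit ATP5F1C by 0.50 and 0.37, whereas ATP5F1A differed by 0.07 and 0.08 (adjusted p = 0.651 and 0.615) and ATP5F1E by 0.36 and 0.15 (adjusted p = 0.0744 and 0.427). ATP5F1A and ATP5F1B together form the head.

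Of the stator of complex V, which holds the head still, 3 of 4 subunits were higher in Raji in both comparisons. ATP5PO, which joins stator and head, read 12.33 and 12.40 in Raji, against 11.50 and 11.33 in Namalwa and 11.62 and 11.38 in Ramos, 1.93-fold and 1.82-fold higher with no overlap. ATP5PF and ATP5PD were higher by 0.56 to 0.69 over both comparisons, and ATP5PB by 0.25 and 0.13 without a call. Among the small membrane subunits ATP5ME was higher by 0.95 and 0.87, while ATP5MG, ATP5MJ and ATP5MK passed in neither comparison. The genes ATP5MC1, ATP5MC2 and ATP5MC3 encode the same mature subunit of the rotor ring: ATP5MC1 was higher by 0.48 and 0.41 with a call in both comparisons, ATP5MC3 by 0.77 with a call against Namalwa, and ATP5MC2 differed by 0.50 and 0.21 without a call. ATP5MF was read at 4.01 to 4.35 by its only probe set with a symbol of its own and was not tested. ATP5IF1, the inhibitor that stops the enzyme from running backwards, differed by -0.01 and 0.21 without a call. COX7A2L, which joins complexes III and IV, was higher by 0.47 and 0.37.

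Of the 32 members with more than 1 probe set above the minimum level, 8 had another that gave the opposite direction for Raji relative to the mean of the other lines: ATP5F1C, ATP5PB, COX4I1, NDUFA6, NDUFB2, NDUFB8, NDUFC1 and UQCR11. NDUFC1, for instance, was higher by 0.56 relative to that mean by its brightest probe set and lower, at -0.28, by the other. The counts above rest on the brightest of them.

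The 9 tested members on chromosome 19 by the RefSeq table (ATP5F1D, COX6B1, NDUFA11, NDUFA13, NDUFA3, NDUFA7, NDUFB7, NDUFS7 and UQCR11) were all higher in Raji than in Namalwa, where 30.1% of the 887 tested genes of that chromosome were, and 7 were higher than in Ramos, beside 33.5%. Their median difference of Raji from the mean of the other lines was 1.04, and that of all tested genes of the chromosome 0.18. The 65 members elsewhere had 35 higher than in Namalwa and 29 higher than in Ramos, with median differences of 0.41 and 0.26. This grouping was chosen after the values were seen and has no test. ATP5F1D, NDUFS7 and NDUFA7, among the members furthest apart between the lines, are in it.

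Between Namalwa and Ramos, 4 of the 74 tested members passed (5.41%), against 14.7% of all genes: 3 were higher in Namalwa (4.05%, against 8.09%) and 1 lower (1.35%, against 6.57%). NDUFS7 (0.70 ± 0.19, SE), NDUFB1 (0.54 ± 0.13) and ATP5F1D (0.52 ± 0.15) were higher in Namalwa (limma, adjusted p = 0.0343, 0.0191 and 0.0466). NDUFA9 was lower, with 9.11 and 9.02 in Namalwa, against 9.46 and 9.74 in Ramos (-0.54 ± 0.14, adjusted p = 0.027). The median member difference was -0.08, and these calls rest on few arrays: 2 passed without the Namalwa empty array, 1 without the Ramos empty array and none without the Ramos miR26a array. Without the Namalwa miR26a array 5 passed, all lower in Namalwa.

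**Figure D3:**
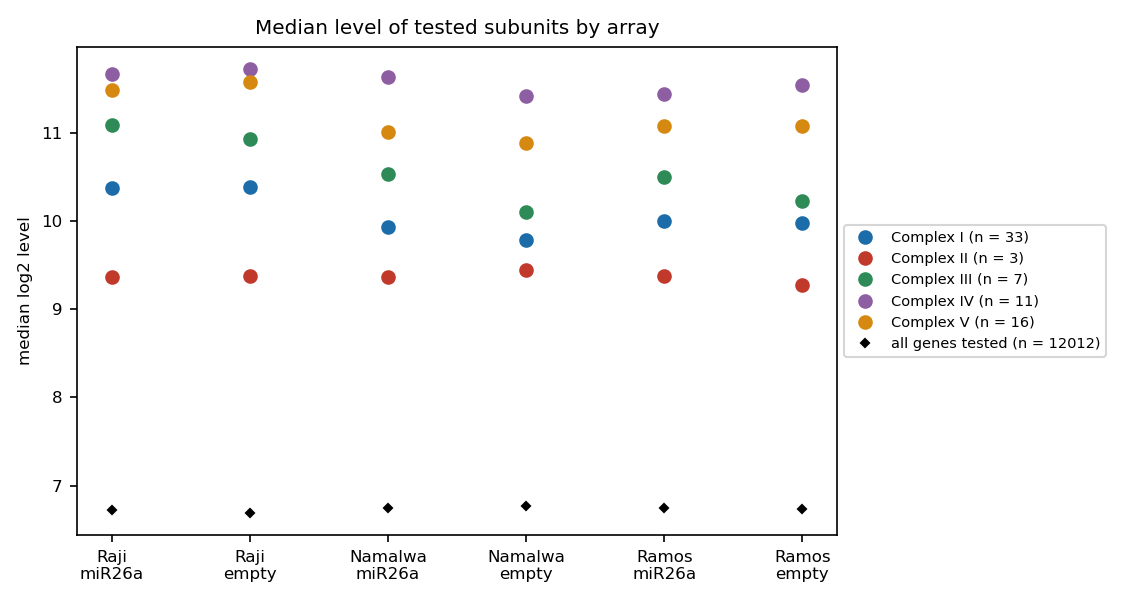
Median log2 level of the tested subunits of each complex on each array (points), with the median of all 12012 genes tested as diamonds. Within complexes I, III, IV and V both Raji arrays lie above the other 4. In complex V they lie at 11.48 and 11.57 against 10.88 to 11.08. The gap is narrow in complex IV, at 11.66 and 11.72 against 11.42 to 11.63. Complex II stays between 9.27 and 9.44. Heights of different complexes are not compared.

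With miR26a no member passed the test against empty: 0 of 74, beside 0% of all genes (0 of 12012, limma with the line as a block). At an unadjusted p under 0.05 there were 6 members (8.11%), namely NDUFA3, NDUFA10, NDUFB1, UQCRQ, COX5B and COX7A2L, all with a positive change, beside 12.9% of all genes. With 3 pairs an exact sign-flip test of any single gene cannot go below 0.25. The median member change was 0.07, where that of all genes was -0.01. The member with the lowest adjusted p was NDUFA3, an accessory subunit next to the quinone site of complex I, with 9.93 (miR26a) and 9.49 (empty) in Namalwa, 10.21 and 10.06 in Raji and 9.99 and 9.63 in Ramos. Its miR26a array was the higher of the pair in each line, by 0.32 ± 0.11 on average (SE, limma, adjusted p = 0.253).

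Per line, the median over the members was 0.16 (Namalwa), -0.01 (Raji) and 0.05 (Ramos). In Namalwa the miR26a array was the higher for 61 of 74 members (82.4%), beside 47.6% of all genes. In Raji this held for 33 members (44.6%, beside 46.7%) and in Ramos for 46 (62.2%, beside 48.3%). The Namalwa empty array, on which every Namalwa change rests, is the one with the wider 3′ to 5′ gap of ACTB and GAPDH, whose part in these changes was not tested. Without Namalwa the median member change was 0.03, and without Raji 0.11.

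ATP5MC2, a gene of the rotor ring of ATP synthase, had the highest mean change, 0.39 ± 0.19 (SE, limma, adjusted p = 0.434). It read 10.67 (miR26a) and 9.58 (empty) in Namalwa, 10.63 and 10.62 in Raji and 10.44 and 10.37 in Ramos. The Namalwa empty array alone stood apart, and the other 5 lay between 10.37 and 10.67. COX5B changed by 0.69 in Namalwa, 0.13 in Raji and 0.18 in Ramos (mean 0.33 ± 0.13, adjusted p = 0.314), and of its other 3 probe sets those at levels of 10.47 and 10.39 by 0.33 and 0.28 on average and the dimmest, at 6.37, by -0.13. NDUFB1, of the far membrane arm, changed by 0.22, 0.25 and 0.41 in the same order (mean 0.29 ± 0.10, adjusted p = 0.271), and NDUFA10, next to the quinone site, by 0.32 on average. UQCR10, UQCRQ and UQCR11 of complex III each changed by 0.26, the last by -0.17 with its dimmer probe set, and SDHC by 0.15.

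**Figure D4:**
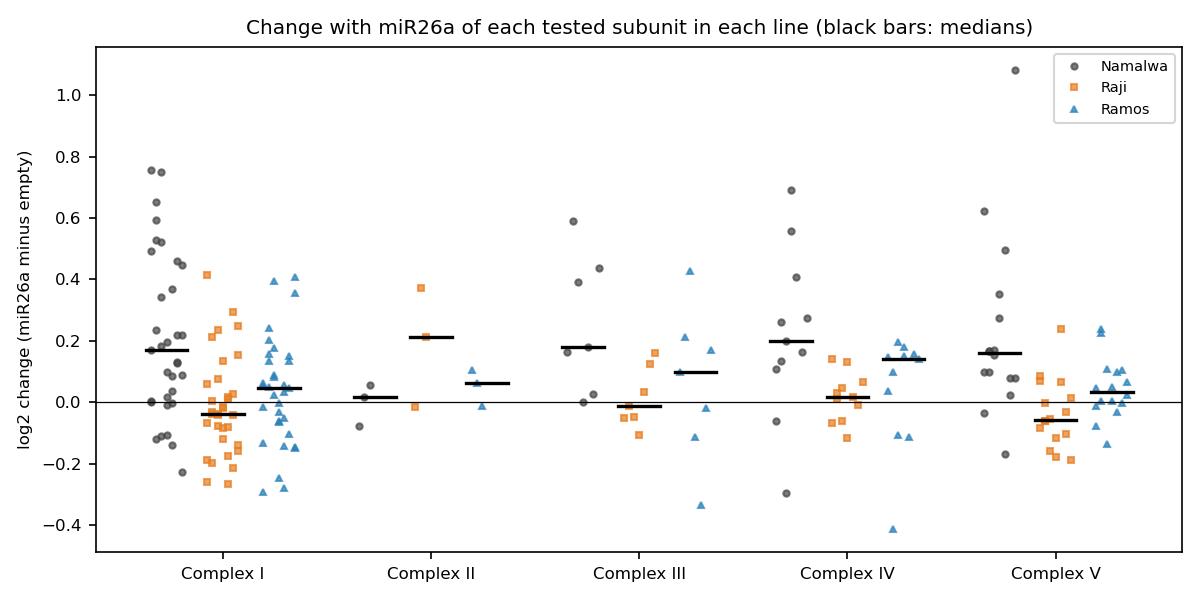
Log2 change of each tested subunit, miR26a minus empty, in Namalwa (circles), Raji (squares) and Ramos (triangles) by complex, with medians as black bars. Namalwa points lie mostly above 0, up to 1.08 for ATP5MC2, and those of Raji spread on both sides of it.

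A positive change in all 3 lines was seen for 19 members (25.7%), beside 15.5% of all genes, and a negative one for 5 (6.76%, beside 19.6%): NDUFV3, NDUFB3, NDUFB6, COX5A and ATP5IF1. These counts rest on the brightest probe set of each member. Of the 32 members with more than 1 probe set above the minimum level, 14 had another whose mean change went the opposite way. NDUFV3 had the lowest mean change, -0.18 ± 0.10 (SE, limma, adjusted p = 0.492). In complex I, the 7 subunits next to the quinone site all had a positive mean change, with a median of 0.21, whereas 3 of the 10 of the NADH arm did, with a median of -0.01, beside 47.2% of all genes. Without Namalwa, 5 of those 7 were positive, with a median of 0.07, and 4 of those 10, with a median of -0.06, beside 47.6% of all genes. Whether lines differed in their change was asked with 1 line's change minus the mean of the other 2, a fit chosen after the data were seen that leaves 1 residual degree of freedom and can detect only large differences. No member passed in any line, nor did any gene for Namalwa or Ramos, whereas 25 genes (0.208%) did for Raji. At an unadjusted p under 0.05 there were 7 members for Namalwa (9.46%, beside 6.57% of all genes), 1 for Raji (1.35%, beside 8.70%) and 0 for Ramos (0%, beside 2.47%). ATP5MC2 changed more in Namalwa by 1.04 ± 0.21 (SE, limma, unadjusted p = 0.00101, adjusted p = 0.578). NDUFA5, the member for Raji, read higher with miR26a there, at 9.23 against 8.81, and not in Ramos, at 10.56 against 10.85 (Raji minus the mean of the others 0.56, unadjusted p = 0.0289).

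Other genes of the pathway were counted by list, between the lines as above. Of 16 tested assembly factors of complex I, 10 were higher (62.5%) and 1 lower (6.25%) in Raji in each comparison. NDUFAF2, an assembly factor that stands in while the NADH arm is completed, read 9.28 and 9.46 in Raji, against 6.29 and 6.50 in Namalwa and 8.35 and 8.39 in Ramos. Its lines did not overlap, and it was higher by 2.97 ± 0.12 and by 0.99 ± 0.12 (SE, limma, adjusted p = 7.04e-08 and 0.000125). Of 5 factors of complex III, 4 were higher and 1 lower in each comparison, with TTC19, which clears fragments of the Rieske protein, higher by 1.51 and 1.13, and LYRM7, which brings that protein to the complex, lower (-0.71 and -0.95). Among 23 factors of complex IV, 8 were higher and 2 lower than in Namalwa, and 10 higher and 6 lower than in Ramos (34.8% and 8.70%, and 43.5% and 26.1%), so that the lower calls against Ramos are near the 24.4% of all genes. The copper chaperone SCO1 was higher by 1.48 and 1.18. Of 4 factors of complex II, 2 were higher and 1 lower in each comparison, with SDHAF4 higher by 0.82 and 1.58 and SDHAF3 the lower one (-0.73 and -0.67).

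ATPAF1, the chaperone that guides the beta subunit ATP5F1B into the head of ATP synthase, was lower in Raji, where no synthase subunit was. It read 4.79 and 5.16 in Raji, against 7.74 and 8.40 in Namalwa and 7.55 and 7.89 in Ramos. Both Raji arrays lay more than 2 units below the others, close to the minimum level, with differences of -3.10 ± 0.13 and -2.75 ± 0.13 (SE, limma, adjusted p = 9.13e-08 and 1.99e-07). ATPAF2, the chaperone of the alpha subunit, was higher in Raji by 0.42 and 0.87. Of 18 electron and nucleotide carriers, 8 were higher (44.4%) and 2 lower than in Namalwa and 9 higher (50%) and 1 lower than in Ramos. The ADP/ATP carrier SLC25A4 was higher by 1.37 and 1.23 and the outer-membrane channel VDAC2 by 1.49 and 1.22, while CYCS, cytochrome c itself, differed by -0.10 and -0.11 without a call.

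Genes upstream and beside the chain differed by list. The shares called higher in Raji were 59.5% (against Namalwa) and 48.6% (against Ramos) for the members. Those of the mitochondrial ribosomal proteins lay near these in both comparisons (61.3% and 52%). For the TCA cycle the share was near that of the members against Namalwa (62.5%) and above it against Ramos (75%). The shares of glycolysis were below those of the members in both. In the TCA cycle list, 10 of 16 were higher (62.5%) and 1 lower than in Namalwa, and 12 higher (75%) and 1 lower than in Ramos, with the pyruvate dehydrogenase subunits DLAT (2.39 and 1.05) and PDHB (1.38 and 1.57) higher in both. Of 75 mitochondrial ribosomal proteins, which translate the subunits encoded in mitochondria, 46 were higher (61.3%) and 5 lower than in Namalwa, and 39 higher (52%) and 4 lower than in Ramos, and MRPS16 was higher by 2.34 and 2.40. In glycolysis 9 of 18 were higher (50%) and 3 lower (16.7%) than in Namalwa, but 4 higher (22.2%) and 5 lower (27.8%) than in Ramos, which is near the shares of all genes. The aldolase ALDOC was higher by 1.35 and 1.73 and the phosphofructokinase PFKP was lower (-1.19 and -1.33). With miR26a none of these lists held a call.

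Of 15 regulators of mitochondrial genes, 3 were higher and 7 lower (46.7%) in Raji than in Namalwa, and 2 were higher and 10 lower (66.7%) than in Ramos. ESRRA, a nuclear receptor that acts on genes of the chain, read 8.63 and 8.62 in Raji, against 7.28 and 7.07 in Namalwa and 7.30 and 7.10 in Ramos (1.45 ± 0.13 and 1.42 ± 0.13, SE, limma, adjusted p = 1.25e-05 and 1.23e-05). TFB1M, which modifies the mitochondrial ribosome, was higher by 0.88 and 0.87, and its relative TFB2M, which helps start mitochondrial transcription, was lower (-0.94 and -1.30). NRF1, whose motif is searched above, read 5.79 and 5.57 in Raji, against 6.87 and 6.72 in Namalwa and 6.34 and 6.38 in Ramos. It was lower in Raji (-1.12 ± 0.13 and -0.68 ± 0.13, SE, limma, adjusted p = 8.61e-05 and 0.00167), and the lines did not overlap. YY1 (-0.56 and -0.51) and MYC (-0.53 and -1.14) were lower in Raji, whereas GABPA passed in neither comparison (-0.38 and -0.15). Its partner GABPB1 differed by -0.16 from Namalwa without a call and was lower in Raji than in Ramos (-0.70, limma, adjusted p = 0.00335). With miR26a TFAM, which packs and transcribes mitochondrial DNA, changed by -0.39 on average without passing (adjusted p = 0.262).

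**Figure D5:**
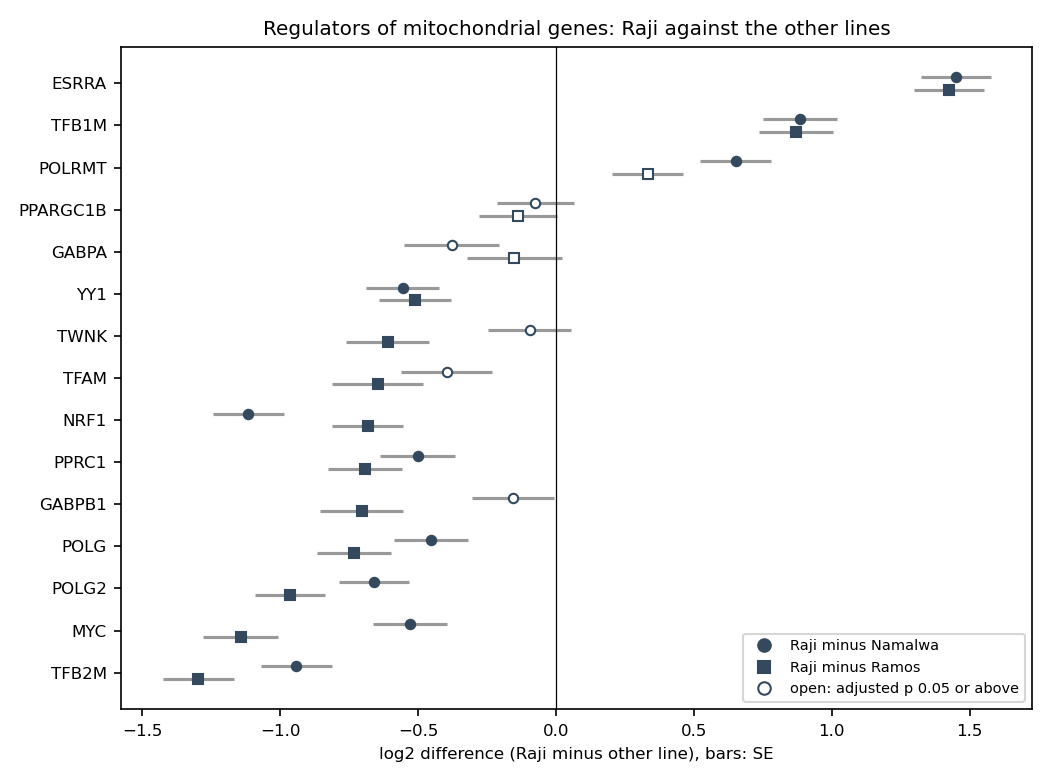
Log2 difference of 15 regulators of mitochondrial genes, Raji minus Namalwa (circles) and Raji minus Ramos (squares), with bars of 1 SE; filled symbols passed an adjusted p of 0.05. ESRRA, TFB1M and POLRMT lie to the right of 0 in both comparisons and the other regulators to the left. POLRMT passed against Namalwa only. Of those to the left, NRF1, TFB2M, MYC, POLG2, YY1, PPRC1 and POLG passed in both.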

How the data were processed

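Each line and group gave 1 Affymetrix U133 Plus array of biotin-labelled total RNA. The deposited log2 values are the authors' RMA output (background correction, quantile normalisation, 1 summary per probe set), per the labels' design text; the submitters' processing notes also name GCOS, without versions. RMA gives arrays one distribution, so a shift of all RNAs would not show. The table was used as deposited, with 54675 probe sets, and no detection calls.

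Symbols came from the platform annotation and were updated through gene IDs with the RefSeq table of assembly GRCh38.p14, for 41037 of 41091 probe sets with 1 symbol. Probe sets with several symbols (1801) or none (11721) named no gene. limma (3.58.1, R 4.3.3) was fitted to 12012 genes at or above the minimum level, blocking on the line for the change with miR26a and keeping the group as a term between lines, with Benjamini-Hochberg adjustment and a threshold of 0.05. The line pairs the arrays: deviations from group means correlated within Namalwa (0.861), Raji (0.950) and Ramos (0.917). The fits were tested on simulated data; the noise model of that simulation was changed 2 times after its outcome was seen, since the first form gave too low a recovery and the next too many false calls, and the one kept is limma's own, so the pass depends on it. The fit of differences between lines in their change recovered few of the simulated differences.

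Named genes were, per complex, the 3 with the largest change, the 3 furthest in Raji and the 2 furthest between Namalwa and Ramos, the brightest and dimmest, all isoform partners and SDH subunits, and members whose probe sets disagree; per list, the 2 with the largest change. Other genes were named after their values were seen. The members, lists and tests were chosen with earlier results of these data known. Alternatives were other level minimums, probe set rules, scalings, blocks, thresholds, an intensity trend and leaving out each array or line.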

Additional observations from a re-analysis of the deposited data

How the results depend on the processing

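With miR26a no member passed under any of the alternatives run. These included no block for the line (0), the line as a random block (0) and leaving out each line (0 to 0). The median member change stayed positive (0.03 to 0.11 leaving out a line). The count of members called ranged over single arrays left out between 28 and 47 for Raji minus Namalwa, 25 and 38 for Raji minus Ramos and 0 and 5 for Namalwa minus Ramos. The last count was 7 at an adjusted p under 0.1 and 0 with no term for the group. The median Raji minus Ramos difference was 0.26 with no minimum level and ranged between 0.26 and 0.40 over arrays left out, and that of Raji minus Namalwa between 0.33 and 0.57.

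Reversed directions with miR26a were SDHD with the mean of its probe sets (-0.072), SDHC (-0.19), UQCR11 (-0.17) and COX5B (-0.13) with the brightest plain probe set (one whose name does not mark it as shared between transcripts or prone to cross-hybridise), SDHA with centred arrays (-0.0021), SDHA leaving out a line (-0.046 to 0.046, lowest without Ramos), and ATP5MC3 leaving out a line (-0.018 to 0.33, lowest without Namalwa). Between lines they were UQCR11 in Raji minus Ramos (-0.35) and COX5B in Namalwa minus Ramos (0.013) with the plain probe set, and SDHA in Raji minus Namalwa with centred arrays (0.016) or an array left out (-0.094 to 0.030, highest without the Namalwa empty array), and in Raji minus Ramos with an array left out (-0.030 to 0.12, lowest without the Ramos empty array). Of these, UQCR11 in Raji minus Ramos was called in both directions; the cause was not tested.

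Over named genes and alternatives, 668 values kept direction and side of the threshold, 24 lost their call, 7 gained one and 12 reversed. There was 1 array per line and group, which limits the precision of the comparison of groups.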

Other observations

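The noncoding RNAs that the symbol rule caught were dim. NDUFV1-DT, transcribed away from NDUFV1, read 6.18 and 6.16 in Raji, against 5.95 and 5.63 in Namalwa and 5.84 and 5.84 in Ramos, and was higher than in Namalwa (0.38, limma, adjusted p = 0.0405) but not called against Ramos (0.33, adjusted p = 0.0628). NDUFB2-AS1 read 6.02 and 5.82 in Raji, against 6.10 and 6.05 in Namalwa and 5.95 and 5.56 in Ramos, and passed in neither comparison.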
